A study of Mus musculus with 16 samples.

Results

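miR-129 was followed through 16 libraries of small RNA from dendritic cells grown out of mouse bone marrow. All rows of the count table whose name starts with mmu-miR-129- were taken, whichever arm they give, and 3 of 1372 names qualified: mmu-miR-129-5p (miR-129-5p below), miR-129-2-3p and miR-129-1-3p. The family was chosen by measured values of these libraries, namely a higher low-level count of miR-129-5p with LPS and with quercetin that did not add up when both were given. Its levels and fold changes over these groups are therefore given as a description, with standard errors and no p-value.

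Bone marrow of male C57BL/6 mice, labelled WT (wild type), was cultured as dendritic cells after red cells had been lysed. Each of 4 mice gave a library to each of 4 groups. The quercetin plus LPS group received 25 µM quercetin, a plant flavonol, on days 5 and 7 and 1 µg/mL lipopolysaccharide (LPS), which comes from the outer membrane of bacteria and is sensed by TLR4, for 6 h on day 8. The LPS group received LPS alone at the same dose and time, the quercetin group quercetin alone on the same days, and the control group neither. Mice 1 to 3 were 8 weeks old and mouse 4 was 7 weeks old by the labels. The cells are a bulk culture, so a change in the share of a cell type and a change per cell cannot be told apart. The 8 miRNAs listed as markers of myeloid cells, such as miR-223-3p and miR-142a-3p, summed to between 314051 and 439854 CPM (counts scaled to sequencing depth) in every library, but none of them tells a dendritic cell from another myeloid cell.

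A miRNA is cut from the stem of a hairpin transcript by Drosha and Dicer, and an arm loaded into Argonaute represses mRNAs that pair with its seed, bases 2 to 8 from the 5′ end. The mouse genome has a pair of miR-129 hairpins, which share the 5p arm and differ slightly in the 3p arm. miR-129 is known as a brain-enriched miRNA. In rat neurons its 5p arm represses the potassium channel Kv1.1, and in human tumour cells it targets SOX4.

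The sequences of the counted arms set what the counts can tell. They are from RefSeq on GRCm38.p6, 5′ to 3′ with the seed in capitals, and the 2 lines after the members are the arms of Mir129b, a hairpin annotated on the opposite strand of Mir129-2.
miR-129-5p: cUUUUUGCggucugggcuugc
miR-129-2-3p: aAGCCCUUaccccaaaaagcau
miR-129b-5p: gCUUUUUGggguaagggcuucc
miR-129b-3p: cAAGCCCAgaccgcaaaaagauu

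Of the 1372 names, 1155 had a mature sequence in RefSeq. None of them shared the seed of miR-129-5p or that of miR-129-2-3p, so neither arm has a seed relative among the sequenced names. miR-129-1-3p had no sequence there and was not part of this search. The matching stretch of the Mir129-1 hairpin differs from miR-129-2-3p only at base 20, outside the seed. miR-129b-3p is complementary to miR-129-5p over 20 bases and miR-129b-5p to miR-129-2-3p over 20 bases. The miR-129b arms held 10 and 11 counts over all 16 libraries.

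Both hairpins are shown next because the 5p counts cannot be assigned to either of them. Capitals mark the 5p arm and the stretch that matches miR-129-2-3p.
Mir129-2 (chr2:94241364-94241453, minus strand): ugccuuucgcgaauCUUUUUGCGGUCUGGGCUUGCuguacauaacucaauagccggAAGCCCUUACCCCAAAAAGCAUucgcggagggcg
Mir129-1 (chr6:29022619-29022691, plus strand): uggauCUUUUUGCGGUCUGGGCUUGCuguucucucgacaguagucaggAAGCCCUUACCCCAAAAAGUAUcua

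The 5p arm is identical in both hairpins. The 3p stretch of Mir129-1 differs from miR-129-2-3p by C20U, counted from the 5′ end of the arm, with the base of miR-129-2-3p first. In GENCODE vM21 on the same assembly, Mir129-2 lies in an intron of the long non-coding RNA gene Mir670hg on the same strand, 1860 bases from its nearest exon. Mir129-1 lies in an exon of the long non-coding RNA gene Gm3294, also on the same strand. miR-670-3p, which carries the name of the first host gene, had 1 count over all libraries.

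By name, the 3p counts lay almost wholly on the chromosome 2 form. miR-129-2-3p had 343 counts over the 16 libraries and was detected in all 16, and miR-129-1-3p had 7 counts in 5 libraries. The share of 3p counts on miR-129-1-3p was 2.00% (7 of 350, 95% exact binomial interval 0.808% to 4.08%, counting error only). The 3p stretches of the hairpins differ only by C20U, and the counting rule is not given. Reads counted under the wrong name are not covered by this interval. By group, miR-129-1-3p had 2 counts with quercetin plus LPS, 1 with LPS, 4 with quercetin and 0 in control, where a limit of 3 counts over the group corresponds to 0.0711 CPM. It did not pass the filter on low counts, which the other 2 members passed, and no fold is given for it.

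miR-129-5p was a low-level miRNA in every group and lowest in control. It had 86, 74, 100 and 34 counts in the quercetin plus LPS libraries of mice 1 to 4, 65, 63, 95 and 32 in the LPS libraries, 90, 33, 84 and 34 in quercetin, and 20, 11, 8 and 16 in control libraries. All 4 control counts lay below the lowest count of any treated library, although the control libraries were sequenced to 8660267 to 12529118 counts and the quercetin libraries to 7694885 to 8563815. By count it stood between 284th and 385th in the treated libraries and between 461st and 523rd in the control libraries, where 823 to 997 names were detected.

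Scaled to depth, miR-129-5p was at 8.85, 8.59, 13.02 and 4.57 CPM in quercetin plus LPS, 5.48, 6.14, 7.53 and 3.68 CPM in LPS, 11.1, 3.45, 9.53 and 4.08 CPM in quercetin, and 1.55, 1.13, 1.00 and 1.39 CPM in control libraries of mice 1 to 4. The 3 treated groups overlapped one another, and no treated library overlapped the controls. The means were 8.76 ± 3.45 CPM with quercetin plus LPS, 7.03 ± 3.83 with quercetin, 5.71 ± 1.60 with LPS and 1.27 ± 0.245 in control (SD, n = 4 each). In this order, neighbours among the treated groups did not differ beyond their spread, and LPS and control did.

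**Figure D1:**
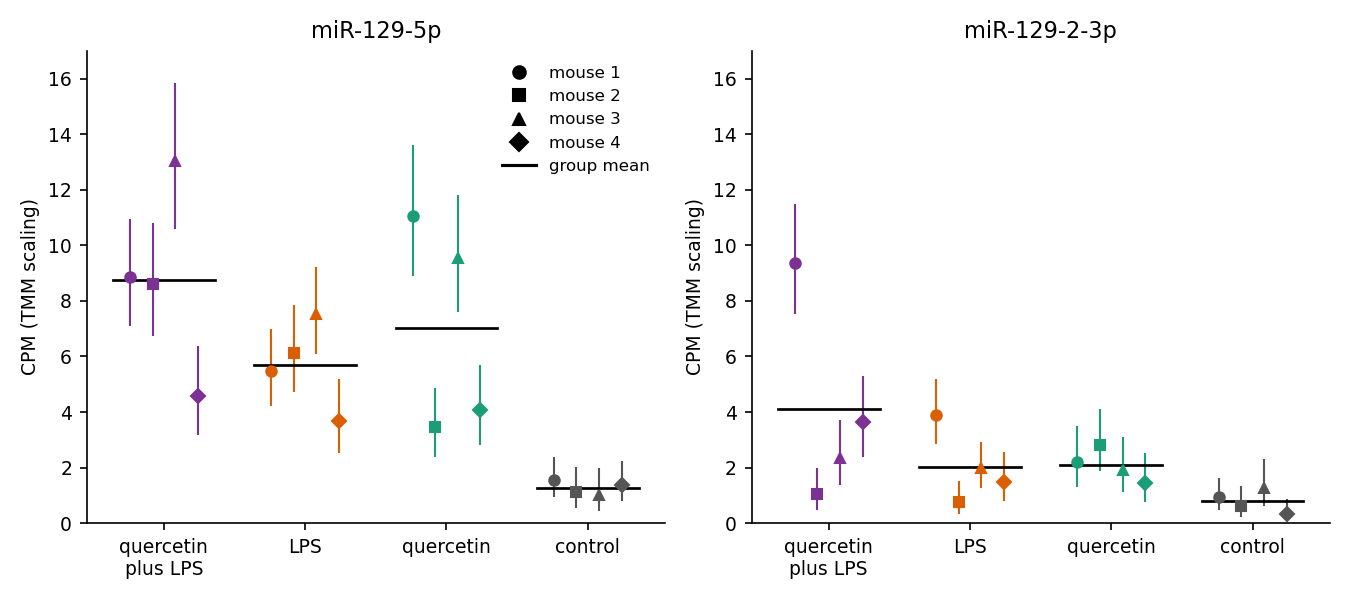
Levels of miR-129-5p (left) and miR-129-2-3p (right) in each library, in CPM with TMM scaling on a linear axis, by group. Points are libraries with marker shape for the mouse, vertical bars are 95% Poisson intervals for counting error, and horizontal lines are group means. All 12 treated libraries lie above the 4 control libraries for miR-129-5p, and the groups overlap for miR-129-2-3p except quercetin and control.

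Counting error was a small part of the spread in the treated groups. The coefficient of variation of miR-129-5p between mice was 39.4% with quercetin plus LPS, 28.1% with LPS and 54.5% with quercetin, where counting alone gives 11.7%, 12.7% and 12.8%. In control it was 19.3%, where counting alone gives 27.4%, so the 4 control values differed by no more than their counts allow. The highest treated library was 2.85 times the lowest with quercetin plus LPS, 2.05 times with LPS and 3.21 times with quercetin. Mouse 4 had the lowest value in both LPS groups and the second lowest with quercetin, where mouse 2 was lowest, while mouse 3 was highest in both LPS groups and lowest in control.

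Some libraries stand apart over all miRNAs and bear on these values. The second principal component of log2 CPM set quercetin plus LPS 4, LPS 4, quercetin 4 and control 3 above the rest of their groups. Quercetin plus LPS 1, at 6.99, also lay away from replicates 2 and 3 of its group, at -8.77 and -11.4. It is not among the 4 libraries left out below. In deviations from the group means, control 3 had correlations of 0.671, 0.469 and 0.566 with the libraries of mouse 4 and of -0.18, -0.174 and -0.465 with those of mouse 3, so its profile goes against its mouse number. The labels were kept, and the values of mice 3 and 4 set against their own control below depend on them. Without these 4 libraries the means of miR-129-5p were 10.2 CPM with quercetin plus LPS, 6.38 with LPS, 8.02 with quercetin and 1.35 in control.

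With LPS alone, miR-129-5p was higher than in control in 4 of 4 mice, by 3.54-, 5.43-, 7.50- and 2.66-fold in mice 1 to 4. The fitted log2 fold change was 2.15 ± 0.42 (SE), the 2nd highest of the 568 miRNAs tested, and 2.21 without the libraries that stand apart. Every LPS library was above every control library, as for 2.11% of the miRNAs tested.

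With quercetin alone, miR-129-5p was higher than in control in 4 of 4 mice, by 7.16-, 3.06-, 9.49- and 2.95-fold. The log2 fold change was 2.45 ± 0.42 (SE), the 12th highest of 568, and 2.54 without the libraries that stand apart. Every quercetin library was above every control library, as for 10.4% of the miRNAs tested.

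With quercetin plus LPS, miR-129-5p was 5.72-, 7.61-, 12.95- and 3.30-fold its control level in mice 1 to 4, a log2 fold change of 2.77 ± 0.42 (SE), the 8th highest of 568, and 2.88 without the libraries that stand apart. Every library of this group was also above every control library, as for 7.57% of the miRNAs tested. These 3 comparisons use the same control libraries. Only 2 of 568 miRNAs (0.352%) had all libraries of all 3 treated groups above all controls, miR-129-5p and miR-455-5p.

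**Figure D2:**
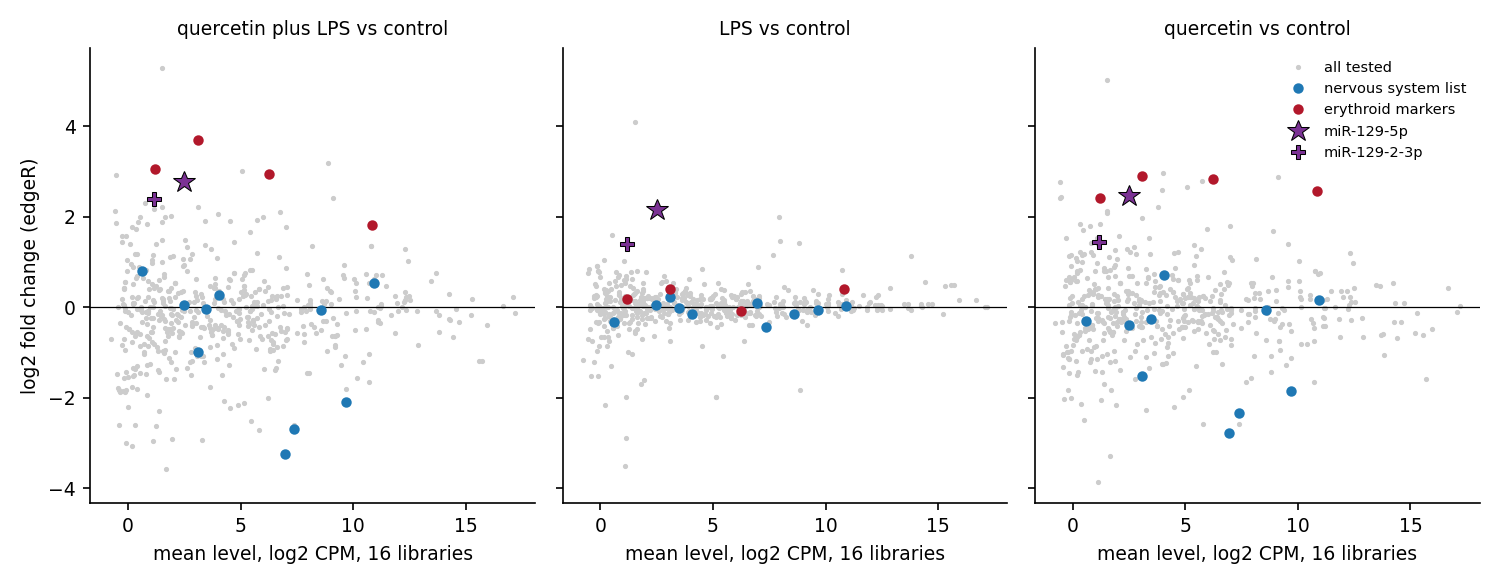
Log2 fold change by edgeR (vertical axis) against mean level over 16 libraries in log2 CPM (horizontal axis) for quercetin plus LPS, LPS and quercetin, each against control. Grey points are the 568 miRNAs tested, coloured points the members, the nervous system list and the erythroid markers. miR-129-5p lies at 2.77, 2.15 and 2.45 and miR-129-2-3p at 2.40, 1.39 and 1.43, while the erythroid markers lie high in the comparisons with quercetin and near 0 with LPS alone.

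Between the treated groups the log2 fold changes were smaller than those against control. Quercetin plus LPS was above LPS in 4 of 4 mice, by 1.62-, 1.40-, 1.73- and 1.24-fold, and the log2 fold change was 0.61 ± 0.39 (SE, 95% interval -0.14 to 1.37). It was above quercetin in 3 of 4 mice, at 0.800-, 2.49-, 1.37- and 1.12-fold, with a log2 fold change of 0.32 ± 0.38 (SE, 95% interval -0.44 to 1.07). In both comparisons the libraries overlapped, where 6.87% of the miRNAs tested lay wholly above LPS and 1.94% wholly above quercetin, and both intervals include 0. For quercetin plus LPS against LPS this depended on the setting: in 6 of 19 alternatives the interval lay above 0, with lower bounds of 0.03 to 0.29. These were library size and upper quartile scaling, a fit of only the groups compared, leaving out LPS replicate 3 or quercetin plus LPS replicate 4, and the mouse as a block with controls 3 and 4 exchanged. Against quercetin it included 0 in all 19. These intervals assume a normal distribution, which makes them too narrow with so few libraries. They describe values that were used to choose the family and are not a test.

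The mean level with both agents was below what the separate differences would give. Adding both differences to the control mean gives 11.5 CPM and multiplying both folds gives 31.7 CPM, against a measured mean of 8.76 CPM, or 0.763 and 0.276 of these. By mouse, the measured level was 0.590, 1.02, 0.811 and 0.718 of the sum and 0.226, 0.458, 0.182 and 0.422 of the product. It was thus below the product in 4 of 4 mice and below the sum in 3 of 4, with mouse 2 at the sum. No error was fitted for the distance from the sum, and the SDs were 3.45 CPM with quercetin plus LPS and 3.83 CPM with quercetin. A shortfall from the sum is therefore not established. The fitted interaction of quercetin and LPS, which measures the distance from the product, was -1.83 ± 0.56 (SE) on the log2 scale and -1.87 without the libraries that stand apart. This is the pattern for which the family was chosen. Over all 568 miRNAs, 0 passed the test of the interaction by edgeR (0% called), 26 had an unadjusted p under 0.05, and DESeq2 and limma-voom also called 0.

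**Figure D3:**
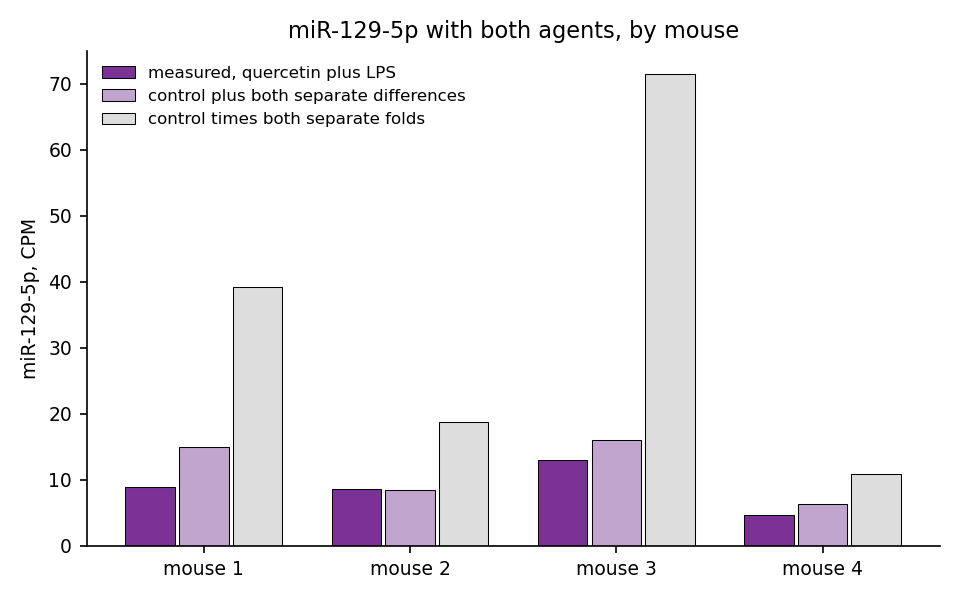
miR-129-5p in CPM (linear axis from 0) with quercetin plus LPS in each mouse, beside the control level plus both separate differences and the control level times both separate folds. The measured bar is the lowest of the 3 in mice 1, 3 and 4, and in mouse 2 it equals the sum at a ratio of 1.02.

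miR-129-2-3p, the arm that names the chromosome 2 hairpin, also had its lowest mean in control. Its coefficient of variation was above that of the 5p arm with quercetin plus LPS (89.6%), LPS (65.2%) and in control (50.0%), and below it with quercetin (27.5%). It was at 9.37, 1.05, 2.34 and 3.63 CPM in quercetin plus LPS, 3.88, 0.779, 1.98 and 1.49 CPM in LPS, 2.21, 2.83, 1.93 and 1.44 CPM in quercetin, and 0.928, 0.616, 1.26 and 0.346 CPM in control libraries of mice 1 to 4. The values of the quercetin libraries all lay above the controls, while those of the LPS and quercetin plus LPS libraries overlapped them. Mouse 1 was highest in both LPS groups and mouse 2 lowest, which is not the order seen for miR-129-5p.

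Each treatment was above control within 4 of 4 mice for miR-129-2-3p as well. The log2 fold changes were 2.40 ± 0.62 with quercetin plus LPS, 1.39 ± 0.62 with LPS and 1.43 ± 0.63 with quercetin (SE), and 2.73, 1.77 and 1.85 without the libraries that stand apart. Without quercetin plus LPS replicate 1 the first was 1.65, and without LPS replicate 1 the second was 0.82. The interaction was -0.43 ± 0.83, with a 95% interval from -2.06 to 1.21, so an effect of the size seen for the 5p arm and none at all both lie inside it, and its sign turned without LPS replicate 1 (0.31) or quercetin plus LPS replicate 2 (0.10). The measured mean of 4.10 CPM was 1.22 times the sum of 3.35 CPM and 0.754 of the product of 5.43 CPM. By mouse, the measured level was 1.81, 0.350, 0.882 and 1.40 of the sum. It was thus below the sum in 2 of 4 mice, and a level above the sum is not established.

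The balance of the arms varied between libraries more than between groups. Of the counts of both arms, miR-129-5p held 67.0% with quercetin plus LPS (294 against 145), 73.5% with LPS (255 against 92), 76.5% with quercetin (241 against 74) and 63.2% in control (55 against 32). Single libraries ran from 44.4% in control 3 to 89.2% in quercetin plus LPS 2, and 14 of 16 held more 5p than 2-3p. Over the 16 libraries, which share depth and treatment, log2 CPM of the arms correlated at r = 0.561, and their deviations from the group means at r = -0.0962. The arms thus share their difference from control, and within a group a library high in one was not the one high in the other. The 5p counts may come from either hairpin and the 2-3p counts are credited to Mir129-2 by name only, so the ratio need not be that of a single hairpin.

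**Figure D4:**
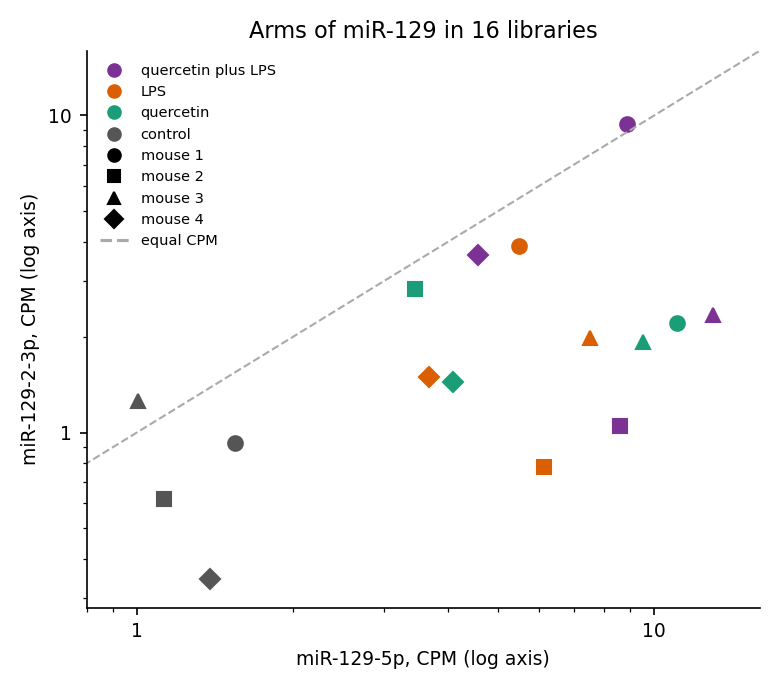
miR-129-2-3p against miR-129-5p in each of 16 libraries, in CPM on log axes, with colour for the group and marker shape for the mouse. The dashed line marks equal levels: 14 libraries lie below it, control 3 and quercetin plus LPS 1 lie above it, and the controls form the lower left corner.

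The miRNAs most like miR-129-5p over the 16 libraries, by Pearson correlation of log2 CPM, were miR-3074-5p (r = 0.792), miR-101a-5p (0.719), miR-455-5p (0.705), miR-410-3p (0.685) and miR-411-5p (0.671), while the median over the 566 others tested was -0.0453. The correlations of deviations from the group means were 0.344, 0.128, -0.329, 0.379 and 0.0238 in the same order, so the likeness lay mostly in the group levels. By Spearman's rho 2 of these 5 stayed among the nearest 5, miR-3074-5p (0.823) and miR-411-5p (0.706).

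miR-3074-5p is encoded opposite miR-24-3p at a pair of loci and overlaps it by 20 bases. Its counts in mice 1 to 4 were 47, 47, 48 and 25 with quercetin plus LPS, 8, 48, 4 and 28 with LPS, 55, 1, 37 and 47 with quercetin, and 4, 0, 1 and 0 in control. Its LPS libraries split into high ones (mice 2 and 4) and low ones (mice 1 and 3), unlike those of miR-129-5p, while with quercetin mouse 2 was lowest for both. miR-455-5p, the other miRNA above control in every treated library, averaged 38.7 ± 12.6 CPM with quercetin plus LPS, 18.6 ± 1.75 with LPS, 23.8 ± 5.41 with quercetin and 10.3 ± 1.26 in control (SD, n = 4). miR-410-3p and miR-411-5p, of the imprinted Dlk1-Dio3 cluster, averaged higher in both quercetin groups and near control with LPS. miR-410-3p averaged 14.6 ± 7.40, 3.95 ± 0.706, 12.3 ± 5.92 and 3.12 ± 1.13 CPM in quercetin plus LPS, LPS, quercetin and control.

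**Figure D5:**
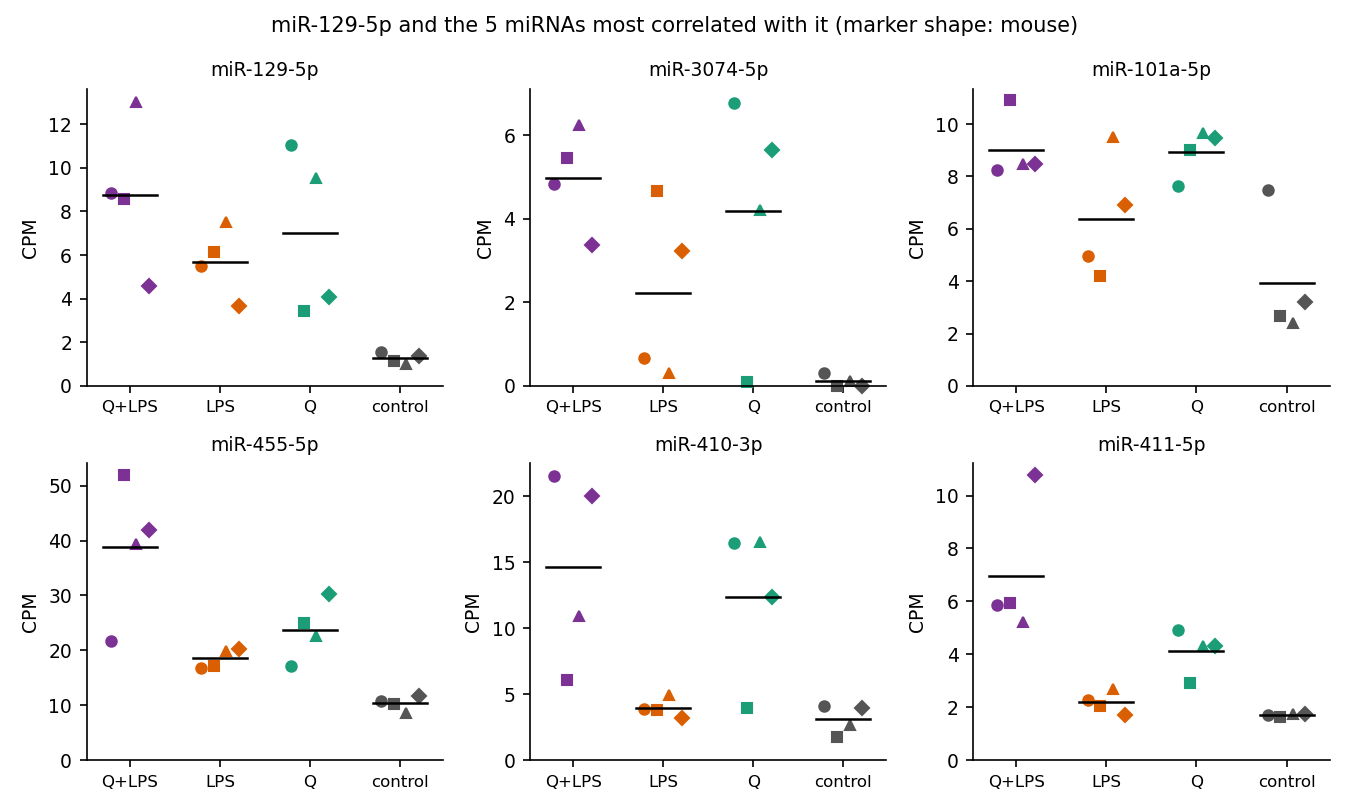
CPM of miR-129-5p and of the 5 miRNAs most correlated with it, on linear axes from 0 that differ between panels, by group (Q, quercetin). Points are libraries with marker shape for the mouse and lines are group means. miR-455-5p and miR-129-5p have every treated library above the controls, and miR-3074-5p has treated libraries at the control level.

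A list of 18 other nervous system miRNAs, of which 10 were tested, gave these counts. With LPS none passed by edgeR in either direction, at a background of 0.528% higher and 0% lower over all miRNAs tested, none had an unadjusted p under 0.05, and DESeq2 and limma-voom also called 0. The list's median log2 fold change was -0.04, against 0.02 over all miRNAs tested. With quercetin 4 of 10 fell and 0 rose, at a background of 8.98% lower, 6.87% higher and 15.8% in either direction, and the 0 higher calls with either agent are near what these backgrounds give for 10 miRNAs. The 4 that fell were miR-212-3p, miR-132-3p, miR-138-5p and miR-7a-5p, with log2 fold changes of -2.78 ± 0.28, -1.85 ± 0.26, -2.33 ± 0.54 and -1.52 ± 0.36 (SE, adjusted p between 7.9e-06 and 0.009 by edgeR). The median was -0.34, against -0.05 over all. With quercetin plus LPS against control 3 of 10 fell and 0 rose (background 10.2% lower, 6.87% higher and 17.1% in either direction). DESeq2 called 1 of the list higher there, against 69 over all miRNAs. miR-132 and miR-212 respond to CREB signalling and are also made in immune cells, and they stand in the next list too. Both lists were written with earlier results of these data known.

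The defining nervous system miRNAs ranged from near 0 to far above the 845 counts of miR-129-5p. Over the 16 libraries, miR-137-3p had 1 count, miR-488-3p 5, miR-153-3p 20 and miR-124-3p 60, at most 1.17 CPM in any library. miR-219a-5p had 233 counts and miR-9-5p, which is also made in activated myeloid cells, lay between 1408 and 3592 CPM. The 6 markers together summed to 1709 to 3596 CPM with quercetin plus LPS, 1498 to 2227 with LPS, 1452 to 2248 with quercetin and 1409 to 1853 in control, nearly all of it miR-9-5p.

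Among 18 miRNAs known to be induced by LPS in myeloid cells, all tested, 2 rose with LPS and 0 fell, at a background of 0.528% higher and 0% lower, with a median of 0.33 against 0.02 over all. These were miR-155-3p, the passenger arm of miR-155, and miR-222-5p, with log2 fold changes of 2.00 ± 0.35 and 1.15 ± 0.21 (SE, adjusted p = 0.0106 each by edgeR). No call of this list was left without control 1, control 4, LPS 1 or LPS 2, or without the 4 libraries that stand apart, and 1 was left without control 2, control 3 or LPS 4. In quercetin against control 7 of the 18 fell and 0 rose, at a background of 8.98% lower and 6.87% higher. Among them were the same miR-155-3p (-1.56 ± 0.34, adjusted p = 0.00587 by edgeR) and miR-222-5p (-1.66 ± 0.21, adjusted p = 4.0e-05 by edgeR). miR-155-3p was at 231 ± 90.1 CPM with quercetin plus LPS, 556 ± 186 with LPS, 46.9 ± 7.14 with quercetin and 139 ± 57.6 in control (SD, n = 4). Where miR-129-5p was above control with each agent, these 2 rose with LPS and fell with quercetin.

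Markers of some other cell types moved with some of the groups in which miR-129-5p was high. All 4 erythroid markers (both arms of miR-144, miR-451a and miR-486a-5p) rose with quercetin plus LPS and with quercetin against control, at a background of 6.87% higher in each. With LPS alone 0 of 4 passed by edgeR, at a background of 0.528% higher, none had an unadjusted p under 0.05, and DESeq2 and limma-voom called 0. They summed to 1268 to 3040 CPM with quercetin plus LPS, 442 to 1407 with LPS, 2583 to 6646 with quercetin and 397 to 891 in control. Of 10 stromal, endothelial and epithelial markers, 4 rose in quercetin plus LPS against LPS, at a background of 8.63% higher and 22.9% in either direction. Against control 0 of 10 passed by edgeR in any of the 3 treatments. There 4 had an unadjusted p under 0.05 with quercetin plus LPS, 3 with LPS and 1 with quercetin. Over all 568 miRNAs tested, 186, 26 and 155 had such a p by edgeR, in the same order. The direction of the 3 list members with LPS is not given here. With quercetin plus LPS, DESeq2 called 3 of the list higher and limma-voom 1, against 69 and 41 over all miRNAs. Both called 0 of the list with either agent alone. The list's median log2 fold change was 0.43 with quercetin plus LPS, -1.45 with LPS and 0.41 with quercetin. The markers summed to 168 to 4553 CPM with quercetin plus LPS, 75.1 to 143 with LPS, 142 to 1290 with quercetin and 94.9 to 510 in control. Of 2 lymphocyte markers, 0 passed by edgeR against control in any of the 3 treatments. The backgrounds in either direction were 17.1% with quercetin plus LPS, 0.528% with LPS and 15.8% with quercetin. These 2 summed to 374 to 627 CPM with quercetin plus LPS, 382 to 872 with LPS, 543 to 787 with quercetin and 391 to 1023 in control. No marker of these lists was at 0 in any group, and the part of these cells in the levels of miR-129 was not tested.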

How the data were processed

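The authors deposited 1 table of counts per mature miRNA, not normalised, for 16 libraries from total RNA (miRNeasy and TruSeq Small RNA kits, per the labels). Per the submitters' processing notes they used cutadapt and the build mm9; versions, aligner and counting rule are not given in the sources used here. Of 1381 rows with 1377 names, 4 names on 2 rows each were summed, 1 row with text among its counts was left out, and so were 4 rows whose quercetin counts look exchanged between neighbours, which left 1372 names. The rows beside miR-129-5p and miR-129-2-3p held at most 4 counts in any library.

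Totals ran from 6454535 to 13943904 counts. The quasi-likelihood test of edgeR 4.0.16 (R 4.3.3) was run on the 568 names that filterByExpr kept, scaled by TMM, with the groups as terms and all 16 libraries in the fit; p-values were adjusted by Benjamini-Hochberg over the 568, with a threshold of 0.05. Levels are CPM with TMM scaling, intervals of counts are exact Poisson (95%, counting error only), and log2 CPM used a prior count of 2. Intervals of log2 fold changes are 95% intervals from the SE by a normal approximation. Alternatives were DESeq2 1.42.0, limma-voom (limma 3.58.1), other scalings, filters and libraries. Only the edgeR fit of LPS against control was run on simulated data, with results not given here. The members and lists were chosen with earlier results of these data known. Named miRNAs are the members, the 5 most correlated with miR-129-5p, the miR-129b arms, seed relatives, and up to 4 list members per comparison with the smallest p among those that passed; miR-670-3p was added after its value was seen.

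The series names 4 mice and the labels number libraries by mouse, which gives the pairing. Deviations from the group means correlated at a mean r of 0.135 over 24 same-mouse pairs (-0.465 to 0.645) and -0.0441 over 72 pairs of different mice.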

Additional observations from a re-analysis of the deposited data

How the results depend on the processing

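The log2 fold changes and the interaction of miR-129-5p kept their sign under all 121 alternatives run and moved by less than the pooled standard deviation within groups, 0.56 on the log2 scale. Leaving out 1 library at a time gave 1.93 to 2.25 for LPS against control, 2.14 to 2.66 for quercetin against control, 2.62 to 3.14 for quercetin plus LPS against control, 0.46 to 1.04 against LPS, 0.18 to 0.77 against quercetin and -1.97 to -1.32 for the interaction. With the mouse as a replicate block these were 2.09, 2.31, 2.67, 0.58, 0.36 and -1.73, and the block changed no count of miRNAs called by over 1.5 times. Summing all miR-129 rows gave mean levels of 12.9 CPM with quercetin plus LPS, 7.76 with LPS, 9.26 with quercetin and 2.05 in control.

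The counts of miRNAs called over the whole table depended more on the settings. For LPS against control (3) they were 1 with library size scaling, 6 with DESeq2 and 0 without the 4 libraries that stand apart, and 0 to 2 with 1 library left out. For quercetin against control (90) they were 45 without those 4 libraries and 54 to 76 with 1 left out. For quercetin plus LPS against control (97) they were 61 with only the compared groups in the fit, 147 with the replicate block after exchanging controls 3 and 4, and 78 to 105 with 1 left out. Against LPS (130) they were 70 with only the compared groups and 80 to 133 with 1 left out. Against quercetin (2) they were 4 with DESeq2, 4 with the block after that exchange, and 2 to 7 with 1 left out. The split of higher against lower calls moved with scaling. For quercetin against control it was 39 to 51 with TMM and 48 to 29 with upper quartile scaling. Against control, quercetin plus LPS gave 39 to 58 with TMM and 62 to 43 with upper quartile scaling, and against LPS 49 to 81 with TMM and 75 to 50 with library size scaling. The median log2 fold change of all miRNAs tested moved with it, to -0.13 with library size scaling against 0.02 with TMM for LPS against control, 0.15 with upper quartile scaling against -0.05 for quercetin against control, 0.12 with upper quartile scaling against -0.09 for quercetin plus LPS against control, and 0.15 with library size scaling against -0.13 for quercetin plus LPS against LPS. The exchange of controls and the removal of the 4 libraries were chosen after seeing the data. Control counts of 8 to 20 limit the precision of every fold of miR-129-5p against control.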
